A study of Mus musculus with 10 samples.

Results

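The serpins are a family of proteins, most of which inhibit serine or cysteine proteases. Their genes were taken from the deposited expression table by symbol: a row was a member when its symbol read Serpin, a clade letter from a to i, a number and an optional letter. This gave 58 of the 18994 genes in the table, by a rule that reads symbols only and no measured value. Of these, 46 had enough counts to enter the comparison, in which 15250 genes were tested. The other 12 members had too few reads in either group, and their values are given below with their groups.

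The samples were cheek skin of healthy C57BL/6 mice, aged 6 to 8 weeks, whose cheek hair had been shaved 3 days earlier. In the MMP9 group, 5 mice received 1 µg of matrix metalloproteinase 9 (MMP9, a secreted protease also called gelatinase B) in 5 µL, injected into the skin of the right cheek. In the vehicle group, 5 other mice received 5 µL of vehicle, so shaving, injection and volume were shared by both groups. Tissue was taken 4 h after injection, and messenger RNA was selected by its poly(A) tail and read as single ends of 50 bases. Each library is 1 numbered mouse. The labels name neither the sex of the mice nor the contents of the vehicle.

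A serpin presents an exposed loop as bait to a protease. When the protease cuts the loop, the serpin snaps into a new shape that holds the protease in an inactive, covalent complex, so that each molecule works once. In skin, clade B serpins lie mainly inside keratinocytes and leukocytes, where some of them restrain kallikreins, granzymes, cathepsins and elastase that escape their granules. Clade A and the remaining clades are mostly secreted and act in plasma and extracellular matrix on elastase, thrombin, plasminogen activators and complement proteases. Some members inhibit nothing: Serpinh1 is a chaperone of procollagen and Serpinf1 is a growth-regulating glycoprotein. MMP9 protein is itself known to cleave the exposed loop of alpha-1-antitrypsin, the product of the Serpina1 genes, an event that sequencing of messenger RNA does not measure.

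The libraries held between 17121541 and 19443099 estimated counts. MMP9 mouse 4 stood apart in scaling: its TMM factor, which corrects for a few genes taking a large share of the reads, was 0.8434, against 0.9931 to 1.05 in the other 9 libraries. Values below in CPM (counts scaled to library size and by these factors) are raised by its factor in that mouse, for every gene in the same proportion. Counts before scaling were high there too for some genes. Serpinb6d had 58484 in that mouse, the smallest library, and at most 47553 in another. How much of its high values the factor accounts for was not tested. MMP9 mouse 4 had the highest CPM of 16 of the 46 tested serpins, but the highest TPM of only 2. TPM (scaled to transcript length and to a sum shared by all libraries) was used to set genes side by side. It has no such factor, and for the most abundant serpins it was low beside CPM in MMP9 mouse 4. Serping1 had 620 CPM and 384 TPM there, against 634 CPM and 580 TPM in vehicle mouse 1. Which scale lies nearer the true level in MMP9 mouse 4 was not tested. Vehicle mouse 2 and MMP9 mouse 1 also stood apart, with scores for 13 hair shaft and inner root sheath genes of -7.09 and -6.79 on the log2 scale, where the other 8 mice ranged from -0.53 to 3.08. Markers of keratinocytes were abundant in every library, as the tissue label implies, and so were those of skeletal muscle, at summed levels of 13400 to 26700 CPM in vehicle and 13300 to 27000 CPM in MMP9. In bulk tissue such as this, fewer cells of a type and less RNA per cell cannot be told apart.

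Serpin transcripts together made up 0.618% of all TPM, at a summed level of 6230 ± 589 TPM (SD, n = 5) in the vehicle mice and 6130 ± 550 TPM in the MMP9 mice. A few genes held most of this. Serpinb6d alone gave 40.3% of the serpin TPM and ranked number 62 among all genes of the table, and the 8 most abundant members gave 85.6%. In mean TPM over the 10 libraries, Serpinb6d stood at 2490, Serpina3b at 718, Serping1 at 543, Serpina3n at 429, Serpinb6a at 382, Serpinh1 at 254, Serpinf1 at 243 and Serpinb5 at 232. Serpinb6d exceeded Serpina3b in 10 of 10 libraries, by a ratio of at least 2.09. The order below it was less fixed: Serpina3b exceeded Serping1 in 8 libraries, Serping1 exceeded Serpina3n in 9, Serpina3n exceeded Serpinb6a in 6 and Serpinh1 exceeded Serpinf1 in 5. In all, 10 members had a mean of at least 100 TPM, 26 of at least 10 TPM and 43 of at least 1 TPM, while 15 lay under 1 TPM.

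**Figure D1:**
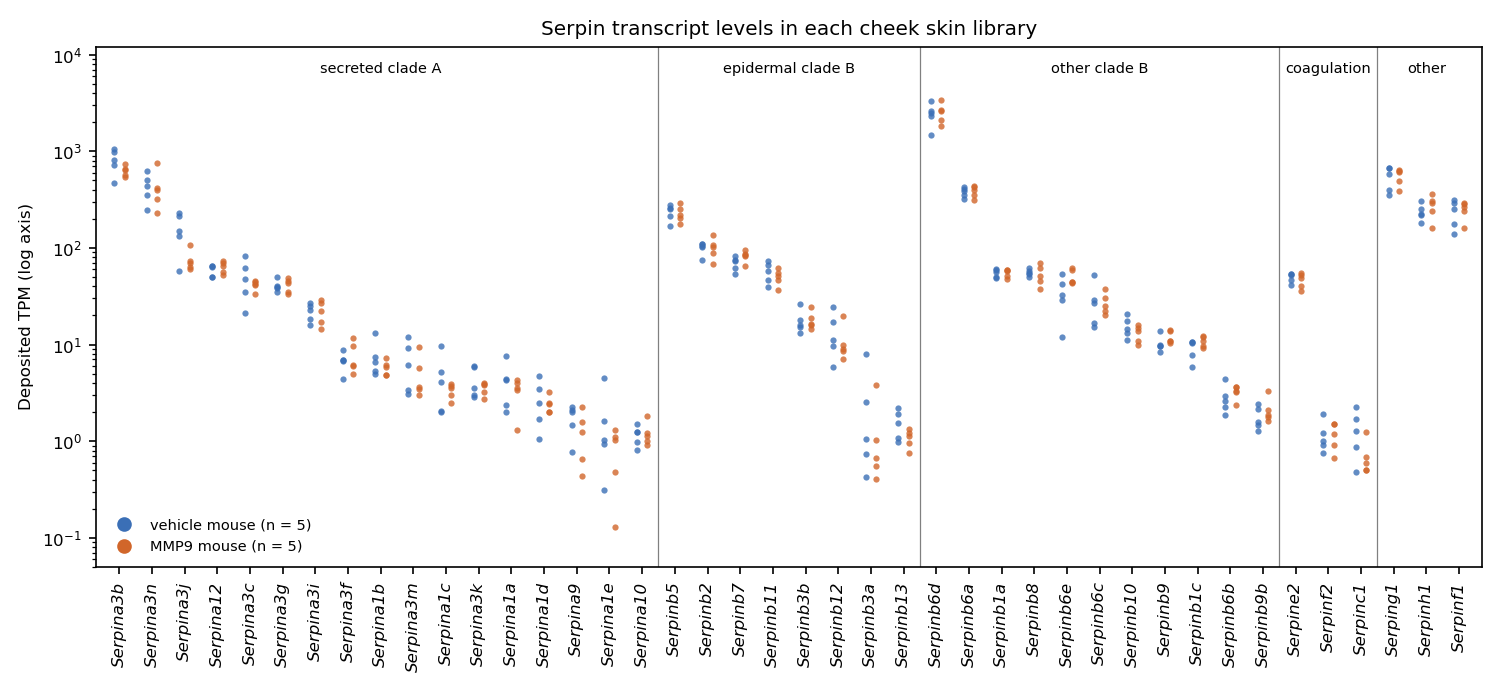
Deposited TPM (log axis) of serpins with a mean of at least 1 TPM, in each of 5 vehicle mice (blue) and 5 MMP9 mice (orange), ordered by mean level within each role group. Means run from 2490 TPM for Serpinb6d down to 1.01 TPM for Serpinc1, and blue and orange points overlap for every gene shown.

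The comparison asks which serpins differ in expression 4 h after MMP9, and none passed the test. With edgeR's quasi-likelihood test and Benjamini-Hochberg adjustment over all tested genes, 0 serpins were called, where 0% of all genes were called, and the lowest adjusted p of a member was 0.981. At an unadjusted p under 0.05 there was 1 serpin of 46, against 3.19% of all genes. It was Serpina3j, which was lower in MMP9, and 1.12% of all genes passed in that direction. No serpin was higher in MMP9 at that level, where 2.07% of all genes were. DESeq2 called 0 serpins and had 2 at an unadjusted p under 0.05, and limma-voom called 0 and had 1. The share of all genes at that level is not at hand for DESeq2 and limma-voom.

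No serpin had groups that did not overlap (0 of 46), against 0.564% of all genes, 0.426% higher and 0.138% lower in MMP9. Log2 fold changes, MMP9 over vehicle, were above 0 for 25 members and below 0 for 21, and 53.7% of all tested genes lay above 0. Their median was 0.05, against 0.01 over all tested genes, and they ran from -0.95 to 0.69. The 95% interval lay within 1 log2 unit of 0 for 32 of 46 serpins, and for 90.2% of all tested genes. For the other 14 members the interval took in a change of 2-fold or more. The spread between mice was wide. The median coefficient of variation within a group was 32.8% in vehicle and 32.2% in MMP9 over the tested serpins, against 12.9% and 17.9% over all tested genes.

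**Figure D2:**
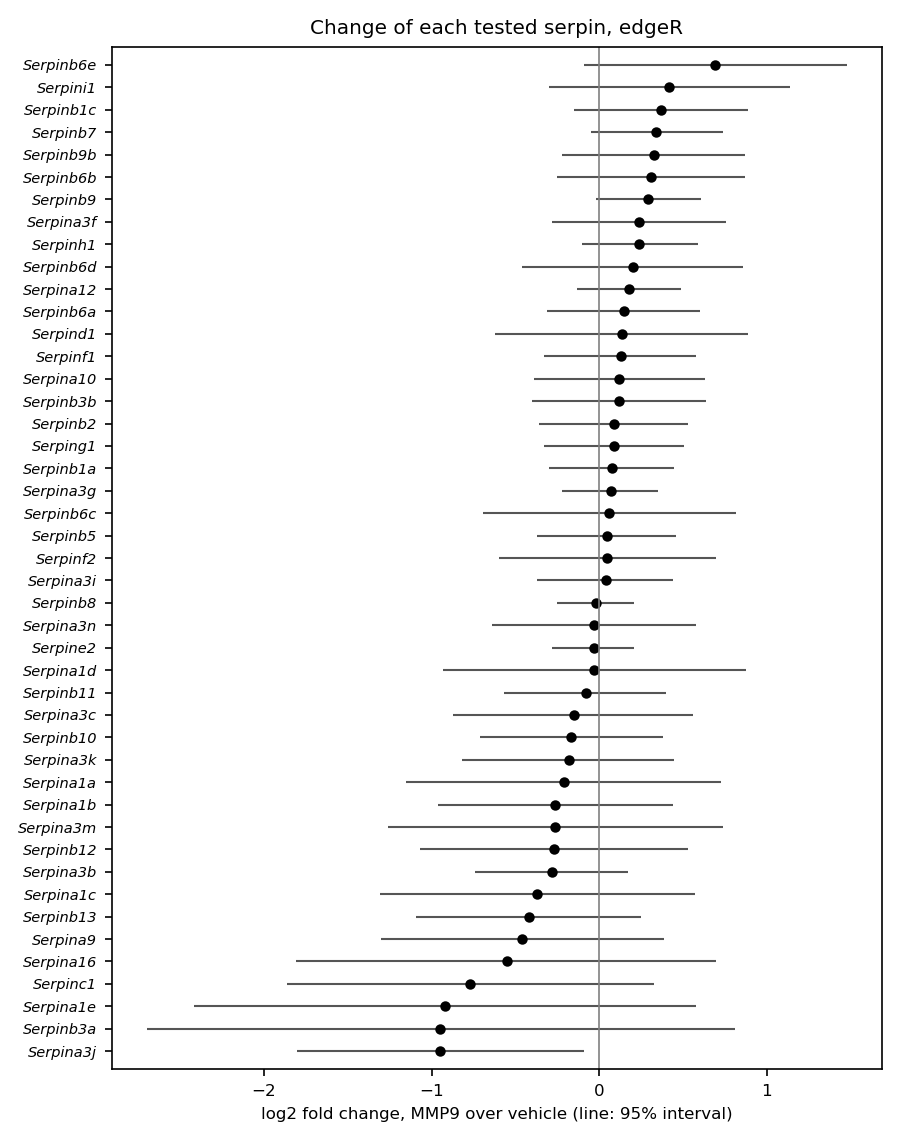
Log2 fold change of tested serpins, MMP9 over vehicle, with its 95% interval, from edgeR and sorted by size. The values run from -0.95 to 0.69, and only the interval of Serpina3j leaves out 0.

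The secreted clade A group holds the alpha-1-antitrypsin and antichymotrypsin families, 23 genes of which 18 were tested. Of these, 5 lay above 0 and 13 below, with a median log2 fold change of -0.19, and 0 were called. Their summed level was 1620 ± 279 TPM (SD, n = 5) in the vehicle mice and 1330 ± 252 TPM in the MMP9 mice. Individual libraries ranged from 1150 to 1840 TPM in vehicle and from 1070 to 1700 TPM in MMP9, so the groups overlapped.

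Serpina3j (Entrez gene 238395) belongs to the mouse cluster of antichymotrypsin-like genes, which in mouse were duplicated many times. In vehicle mice 1 to 5 it stood at 144, 243, 233, 164 and 58.1 CPM, and in MMP9 mice 1 to 5 at 71.7, 69.9, 61, 169 and 66.4 CPM. Among the vehicle mice 4 of 5 lay above 100 CPM and mouse 5 was the lowest of all 10, while 4 of 5 MMP9 mice lay between 61 and 71.7 CPM and mouse 4 overlapped the vehicle range. The log2 fold change was -0.95 ± 0.39 (SE), with an edgeR p of 0.033 and an adjusted p of 0.981. On the TPM scale MMP9 mouse 4 had 108 TPM, and the group means were 158 ± 69.1 TPM (SD, n = 5) in the vehicle mice and 74.8 ± 19.1 TPM in the MMP9 mice. Without MMP9 mouse 4 the log2 fold change was -1.33 (edgeR p 0.00338, adjusted p 0.999). Leaving out vehicle mouse 2 gave -0.78 (edgeR p 0.0819), and leaving out vehicle mouse 3 gave -0.80 (edgeR p 0.0765). With either of these 2 mice left out, no serpin had an unadjusted p under 0.05. The p of Serpina3j also rose above 0.05 without any 1 of the other 4 MMP9 mice, to 0.0666 without mouse 1, 0.0698 without mouse 2, 0.0736 without mouse 3 and 0.0707 without mouse 5 (edgeR), so it was lost in 6 of the 10 fits that leave out 1 mouse.

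Serpina3b (Entrez gene 271047) is the most abundant clade A member and lies in the same gene cluster on chromosome 12. It stood at 731, 1050, 978, 838 and 460 CPM in vehicle mice 1 to 5 and at 600, 697, 624, 829 and 579 CPM in MMP9 mice 1 to 5. The 5 vehicle mice fell in the same order for Serpina3b as for Serpina3j, from mouse 2 at the top through 3, 4 and 1 to mouse 5, an ordering noticed after the values were seen. The MMP9 mice did not share 1 order for the 2 genes. MMP9 mouse 4 was the highest of its group for both in CPM, but in TPM it was the lowest for Serpina3b, at 540 TPM. For Serpina3b the log2 fold change was -0.28 ± 0.21 (SE), with an edgeR p of 0.194 and an adjusted p of 0.981. Their transcripts can be told apart by reads of this length: 3.13% of the distinct 50-base stretches of Serpina3j and 2.92% of those of Serpina3b occur in another gene's transcripts.

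The 250 bases before the start sites of both genes are shown because the levels of these 2 cluster members ran in the same order among the vehicle mice. They are RefSeq sequence of build GRCm38.p6, which is not the build the submitters name, and read 5′ to 3′ on the plus strand. Capitals mark matches, on either strand, to the letters of a CCAAT box (CCAAT), of a glucocorticoid receptor half-site (AGAACA) and of a TATA box (TATAAA).
Serpina3j (chr12:104314320-104314569): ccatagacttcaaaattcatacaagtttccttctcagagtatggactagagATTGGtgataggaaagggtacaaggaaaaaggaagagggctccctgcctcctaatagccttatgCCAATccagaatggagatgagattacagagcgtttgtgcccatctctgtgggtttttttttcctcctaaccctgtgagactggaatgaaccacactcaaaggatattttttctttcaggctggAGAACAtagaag
Serpina3b (chr12:104127746-104127995): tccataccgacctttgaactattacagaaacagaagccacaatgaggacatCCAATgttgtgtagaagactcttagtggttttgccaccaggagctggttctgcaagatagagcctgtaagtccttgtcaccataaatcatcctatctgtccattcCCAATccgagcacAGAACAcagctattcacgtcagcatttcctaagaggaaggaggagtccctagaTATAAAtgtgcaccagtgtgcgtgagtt
The TATA letters occur before Serpina3b, near the end of the window printed, and not in this window of Serpina3j. Aligned to each other with gaps, the windows were identical at 50.3% of positions, whereas those of Serpina3b and Serpina3n were identical at 69.7%. Those of Serpina3j and Serpina3n were identical at 49.7%. The identity of unrelated windows aligned in this way was not measured, so the 50.3% is not read as likeness. Of all 27025 genes with a promoter entry, 37.5% hold the CCAAT box letters in any of their windows of this length. The half-site letters do so in 18.2% of genes and the TATA box letters in 14.3%. Among the 49 serpins with an entry, they occur in 18, 21 and 14. A match describes the letters and is not evidence of a bound site.

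Serpina3n (Entrez gene 20716) is the mouse antichymotrypsin best known as an acute phase protein, raised by cytokines and glucocorticoids in many tissues. Its levels were 635, 434, 308, 795 and 522 CPM in vehicle mice 1 to 5 and 480, 462, 874, 426 and 400 CPM in MMP9 mice 1 to 5. MMP9 mouse 3 was the highest of all 10, the other MMP9 mice lay inside the vehicle range in CPM, and the vehicle mice spread over more than a 2-fold range. MMP9 over vehicle, its log2 fold change was -0.03 ± 0.28 (SE), with an edgeR adjusted p of 0.997 and a 95% interval from -0.64 to 0.58. Its sign turned when any of 6 mice was left out, with values from -0.29 without MMP9 mouse 3 to 0.14 without vehicle mouse 4.

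Of the other antichymotrypsin-like genes, Serpina3c, Serpina3g and Serpina3i had mean levels of 45.6, 40.9 and 21.9 TPM, and Serpina3f, Serpina3m and Serpina3k of 7.21, 5.91 and 3.90 TPM. Their log2 fold changes lay between -0.26 for Serpina3m and 0.24 for Serpina3f, with no edgeR p under 0.3. Serpina12, which encodes the adipokine vaspin, an inhibitor of kallikrein 7, had 61.0 TPM and a log2 fold change of 0.18 ± 0.14 (SE). On the CPM scale 3 of 5 MMP9 mice lay above all vehicle mice for Serpina12, and 3 of 5 did for Serpina3f, but on the TPM scale 2 of 5 did for each. Serpina9, Serpina10 and Serpina16 stood near 1 TPM, at 1.48, 1.19 and 0.794, with log2 fold changes of -0.46, 0.12 and -0.55. These values moved with single mice: that of Serpina16 was -0.06 without vehicle mouse 2 and -1.06 without MMP9 mouse 2, and that of Serpina9 was -0.24 without MMP9 mouse 5 and -0.74 without MMP9 mouse 1.

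The 5 Serpina1 genes encode mouse alpha-1-antitrypsins, the main inhibitors of neutrophil elastase in plasma, and are made chiefly by the liver. All were low in cheek skin, at 6.62 TPM for Serpina1b, 3.98 for Serpina1c, 3.72 for Serpina1a, 2.56 for Serpina1d and 1.24 for Serpina1e. Their counts are uncertain one by one, because their transcripts share sequence. Of the distinct 50-base stretches of Serpina1c, 79.3% occur in another gene, and the shares were 57.6% for Serpina1a, 50.9% for Serpina1d, 34.6% for Serpina1e and 29.5% for Serpina1b. All 5 log2 fold changes were below 0, from -0.92 ± 0.68 (SE) for Serpina1e to -0.03 ± 0.41 (SE) for Serpina1d, with no edgeR p under 0.2. This direction rests on vehicle mouse 1 for 4 of them: without it the values were 0.14 for Serpina1a, 0.05 for Serpina1b, 0.10 for Serpina1c and 0.28 for Serpina1d. That of Serpina1e was -0.14 without vehicle mouse 3.

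Levels of these transcripts followed individual mice. Serpina1c was at 8.23, 1.69, 3.4, 4.4 and 1.65 CPM in vehicle mice 1 to 5 and at 1.92, 3.13, 2.95, 4.5 and 2.51 CPM in MMP9 mice 1 to 5. Vehicle mouse 1 was the highest in its group for Serpina1a, Serpina1b, Serpina1c and Serpina1d, and MMP9 mouse 4 was the highest in its group for the same 4 genes in CPM. In TPM that mouse was the highest for Serpina1b and Serpina1d only, since MMP9 mouse 1 exceeded it for Serpina1a, at 4.32 against 3.97 TPM, and MMP9 mice 2 and 3 did for Serpina1c, at 3.94 and 3.72 against 3.59 TPM. Hepatocyte marker genes were read in the same mice. Albumin (Alb) was at 47, 12.9, 23.3, 26.4 and 14.2 CPM in vehicle and 15.9, 17.1, 20.6, 38.5 and 16.7 CPM in MMP9. All 10 hepatocyte markers had counts in every library, none was at 0, and their summed level ranged from 91.6 to 301 CPM in vehicle and from 81.5 to 374 CPM in MMP9. The list's score was highest in vehicle mouse 1, at 1.00, and MMP9 mouse 4, at 0.86, on the log2 scale. The part of these transcripts in the levels of Serpina1 genes was not tested.

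**Figure D3:**
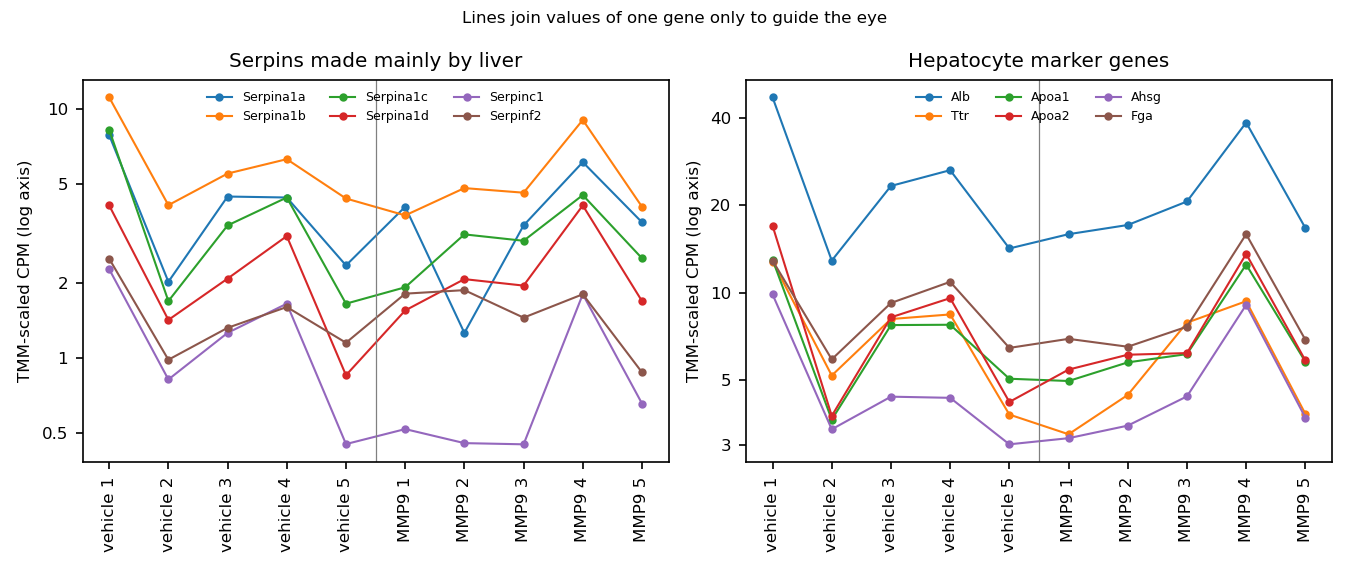
TMM-scaled CPM (log axis) in each of the 10 mice for 6 serpins made mainly by liver (left) and 6 hepatocyte marker genes (right), with lines joining the values of 1 gene. Vehicle mouse 1 and MMP9 mouse 4 carry the highest albumin values, 47 and 38.5 CPM, and on this scale are also the highest in their groups for Serpina1a to Serpina1d. In TPM the latter holds for MMP9 mouse 4 only for Serpina1b and Serpina1d.

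The members of the clade not tested were Serpina6, which encodes the corticosteroid carrier of plasma, with 85 counts summed over all 10 libraries, Serpina11 with 23, Serpina5 with 17, and Serpina3a and Serpina7, the thyroxine carrier, with 4 each.

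The epidermal clade B group covers serpins made by keratinocytes, 10 genes of which 8 were tested. Of these, 4 lay above 0 and 4 below, with a median log2 fold change of -0.02, and 0 were called. Their summed level was 496 ± 79.3 TPM (SD, n = 5) in the vehicle mice and 494 ± 98.2 TPM in the MMP9 mice. All 10 lie in 1 run of 12 clade B genes on chromosome 1, which begins with Serpinb5 and Serpinb12 and ends with Serpinb10 and Serpinb8.

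Of these 12 neighbours, 11 have a promoter entry in RefSeq, and 7 of the 11 hold TGANTCA, the letters of an AP-1 element, within the 250 bases before the start site. The same letters occur in any such window of 7.82% of all genes with an entry, and read the same on both strands, apart from the middle base. Of the 49 serpins with an entry 11 hold the letters, and those outside this run are Serpina1a, Serpina1b, Serpina1c and Serpina1d. TGANTCA was picked from several sets of letters searched upstream of all serpins, among them those of STAT, heat shock and GC box elements. Neighbours of the same family are not independent cases, so the 7 of 11 are described and not tested. The matches are shown with 25 bases on either side where the window allows. They are RefSeq sequence of build GRCm38.p6, plus strand, with the match in capitals.
Serpinb5 (chr1:106861010-106861066): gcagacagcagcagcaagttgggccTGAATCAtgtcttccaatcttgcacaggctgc
Serpinb12 (chr1:106934379-106934435): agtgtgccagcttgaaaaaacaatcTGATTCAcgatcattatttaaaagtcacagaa
Serpinb11 (chr1:107362108-107362164): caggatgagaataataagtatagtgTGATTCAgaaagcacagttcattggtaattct
Serpinb11 (chr1:107362213-107362269): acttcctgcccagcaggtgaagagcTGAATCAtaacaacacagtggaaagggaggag
Serpinb7 (chr1:107422619-107422675): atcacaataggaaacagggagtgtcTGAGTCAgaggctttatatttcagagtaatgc
Serpinb2 (chr1:107511304-107511360): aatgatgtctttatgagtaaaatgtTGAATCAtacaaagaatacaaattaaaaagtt
Serpinb10 (chr1:107528924-107528980): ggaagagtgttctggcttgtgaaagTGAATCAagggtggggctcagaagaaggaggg
Serpinb8 (chr1:107589958-107590005): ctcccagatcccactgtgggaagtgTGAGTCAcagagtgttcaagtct
The matches began between 23 bases (Serpinb8) and 181 bases (Serpinb11) before the start site, and Serpinb11 held 2. Presence of the letters went with no common direction of change: the 7 genes had log2 fold changes from -0.27 for Serpinb12 to 0.34 for Serpinb7.

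Serpinb5 (Entrez gene 20724), which encodes maspin, a non-inhibitory serpin of epithelial cells, was the most abundant of the group. It stood at 387, 388, 429, 264 and 319 CPM in vehicle mice 1 to 5 and at 412, 294, 366, 501 and 272 CPM in MMP9 mice 1 to 5. The groups overlapped. In CPM only MMP9 mouse 4 lay above all vehicle mice, and in TPM only MMP9 mouse 1 did, at 292 TPM, with mouse 4 inside the vehicle range at 219 TPM. The fitted change, MMP9 over vehicle, was 0.05 ± 0.19 (log2, SE), with an edgeR adjusted p of 0.990 and a 95% interval from -0.37 to 0.46, and it was -0.03 on the TPM scale.

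Serpinb7 (Entrez gene 116872) is a keratinocyte serpin whose human counterpart is mutated in a palmoplantar keratoderma. Its levels were 92.8, 80.2, 84.4, 69.8 and 58.5 CPM in vehicle and 96.6, 86.9, 91.2, 141 and 72.7 CPM in MMP9. In CPM, MMP9 mice 1 and 4 lay above all vehicle mice and the other 3 lay inside their range, while in TPM mice 1 to 4 lay above it, at 94, 82.3, 86.8 and 84.3 TPM against a highest vehicle value of 82 TPM. The log2 fold change was 0.34 ± 0.18 (SE), with an edgeR p of 0.0833 and an adjusted p of 0.981. Without MMP9 mouse 4 it was 0.17, and on the TPM scale it was 0.26.

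Serpinb2 (Entrez gene 18788) encodes plasminogen activator inhibitor 2, an intracellular serpin of keratinocytes and activated macrophages. It was at 130, 118, 122, 89.6 and 126 CPM in vehicle and at 149, 99.4, 117, 178 and 79.3 CPM in MMP9. The MMP9 mice reached above and below the vehicle range. MMP9 over vehicle, its log2 fold change was 0.09 ± 0.20 (SE), with an edgeR adjusted p of 0.986, and it was -0.02 on the TPM scale. Of its distinct 50-base stretches, 10.4% also occur in transcripts of Serpinb10, its neighbour.

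Serpinb3a, Serpinb3b and Serpinb12 encode keratinocyte serpins, the first of which is a relative of the human squamous cell carcinoma antigens. Serpinb3a (Entrez gene 20248) was the most variable of the group, at 1.02, 7.54, 0.713, 0.440 and 2.35 CPM in vehicle and 3.42, 0.354, 0.949, 0.832 and 0.656 CPM in MMP9. It was highest in vehicle mouse 2 and next in MMP9 mouse 1, which are the 2 mice nearly without hair transcripts, and the part of hair in this was not tested. The fitted change, MMP9 over vehicle, was -0.95 ± 0.80 (log2, SE), with an edgeR p of 0.260 and a 95% interval from -2.70 to 0.81. Without vehicle mouse 2 it was 0.13, and without MMP9 mouse 1 it was -1.79 (edgeR p 0.0495, adjusted p 0.887). Serpinb12 was likewise highest in vehicle mouse 2 and MMP9 mouse 1, at 23.0 and 17.5 CPM, with the other 8 mice between 5.72 and 16.1 CPM.

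For the rest of the group, Serpinb11, Serpinb3b and Serpinb13 had 53.5, 17.9 and 1.31 TPM and log2 fold changes of -0.08, 0.12 and -0.42, with edgeR p values of 0.709, 0.628 and 0.195. Serpinb3c, with 30 counts over all libraries, and Serpinb3d, with 18, were not tested.

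The leukocyte and housekeeping clade B group holds 14 genes, of which 11 were tested. Of these, 9 lay above 0 and 2 below, with a median log2 fold change of 0.20, and 0 were called. Their summed level was 3040 ± 626 TPM (SD, n = 5) in the vehicle mice and 3150 ± 649 TPM in the MMP9 mice. On the CPM scale MMP9 mouse 4 contributes to this direction: left out, the log2 fold changes of Serpinb6d, Serpinb6a, Serpinb6c and Serpinb1a were below 0, at -0.14, -0.09, -0.15 and -0.12.

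Serpinb6d (Entrez gene 238568) was the most abundant serpin of the tissue. It stood at 1190, 2600, 1940, 1850 and 2010 CPM in vehicle mice 1 to 5 and at 1320, 2010, 1950, 4050 and 1670 CPM in MMP9 mice 1 to 5. MMP9 mouse 4 was far above the other 9, while the remaining MMP9 mice lay inside the vehicle range. On the TPM scale the gap closed to 3420 TPM in MMP9 mouse 4 against 3330 TPM in vehicle mouse 2. The log2 fold change was 0.20 ± 0.30 (SE), with an edgeR adjusted p of 0.981 and a 95% interval from -0.46 to 0.86.

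Serpinb6a (Entrez gene 20719), the mouse counterpart of human SERPINB6 and an inhibitor of cathepsin G, was less variable. Its levels were 347, 268, 294, 364 and 316 CPM in vehicle and 243, 315, 279, 559 and 362 CPM in MMP9. Apart from MMP9 mouse 4, all mice lay between 243 and 364 CPM. In TPM that mouse was at 442 TPM, beside 429 TPM in MMP9 mouse 5 and 424 TPM in vehicle mouse 4. MMP9 over vehicle, its log2 fold change was 0.15 ± 0.21 (SE), with an edgeR adjusted p of 0.981. Of its distinct 50-base stretches, 12.5% also occur in transcripts of Nqo2, so reads of the 2 genes may be split.

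Serpinb6e (Entrez gene 435350), another gene of the expanded mouse Serpinb6 cluster, had the largest log2 fold change above 0 of the 46 serpins. It was at 47.9, 10.4, 25.7, 29.3 and 36 CPM in vehicle and at 36.2, 36.4, 35.6, 78.6 and 55 CPM in MMP9. MMP9 mice 4 and 5 lay above all vehicle mice, the other 3 lay close together inside the vehicle range, and vehicle mouse 2 was the lowest of all 10. The fitted change, MMP9 over vehicle, was 0.69 ± 0.36 (log2, SE), with an edgeR p of 0.0772 and an adjusted p of 0.981. It was 0.44 without MMP9 mouse 4 and 0.93 without vehicle mouse 1 (edgeR p 0.0264, adjusted p 0.974).

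Serpinb9 (Entrez gene 20723) encodes an inhibitor of granzyme B that protects cytotoxic lymphocytes and their neighbours. It stood at 16.5, 14.1, 16.5, 15.5 and 21.7 CPM in vehicle and at 20.8, 17.6, 16.9, 24.9 and 23.2 CPM in MMP9. All 5 MMP9 mice lay above 4 of the 5 vehicle mice, and only vehicle mouse 5 overlapped them. The log2 fold change was 0.29 ± 0.14 (SE), with an edgeR p of 0.0661, an adjusted p of 0.981 and a 95% interval from -0.02 to 0.61. Without vehicle mouse 5 the groups no longer overlapped and the value was 0.40 (edgeR p 0.0135, adjusted p 0.977). On the TPM scale the groups were closer, at 10.3 ± 2.03 TPM (SD, n = 5) in the vehicle mice and 12 ± 1.84 TPM in the MMP9 mice, with a difference of 0.21 on the log2(TPM + 1) scale (limma over all tested genes, p 0.196, adjusted p 0.999).

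Of the markers of T and NK cells, a source of granzymes, 8 of 8 had log2 fold changes above 0, with a median of 0.35, and none was called. At an unadjusted edgeR p under 0.05 there were 4, where 2.07% of all genes passed higher in MMP9. Their summed level ranged from 62.6 to 67.4 CPM in vehicle and from 73.3 to 99.4 CPM in MMP9, and no marker was at 0. Serpinb9 is compared with the score of these markers across the mice below. The part of these cells in the level of Serpinb9 was not tested.

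Serpinb1c (Entrez gene 380839) is a mouse relative of the leukocyte elastase inhibitor Serpinb1a. Its levels were 9.82, 5.35, 9.6, 9.47 and 6.76 CPM in vehicle and 9.12, 8.04, 8.29, 16.6 and 11.2 CPM in MMP9. In CPM, MMP9 mice 4 and 5 lay above the vehicle range and the other 3 inside it. MMP9 over vehicle, its log2 fold change was 0.37 ± 0.24 (SE), with an edgeR p of 0.146 and an adjusted p of 0.981, and it was 0.15 without MMP9 mouse 4 (edgeR p 0.46). Serpinb1a itself, at 54.7 TPM, had a log2 fold change of 0.08 ± 0.17 (SE).

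Among the rest of the group, Serpinb8, at 54.3 TPM, had a log2 fold change of -0.02 ± 0.11 (SE), with a 95% interval from -0.25 to 0.21 that was among the narrowest of the family. Serpinb6c, Serpinb10, Serpinb6b and Serpinb9b had 27.5, 14.3, 3.02 and 1.96 TPM and log2 fold changes of 0.06, -0.17, 0.31 and 0.33, with no edgeR p under 0.2. Serpinb1b had 54 counts over all libraries, and Serpinb9d and Serpinb9g had 1 each, and these 3 were not tested.

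**Figure D4:**
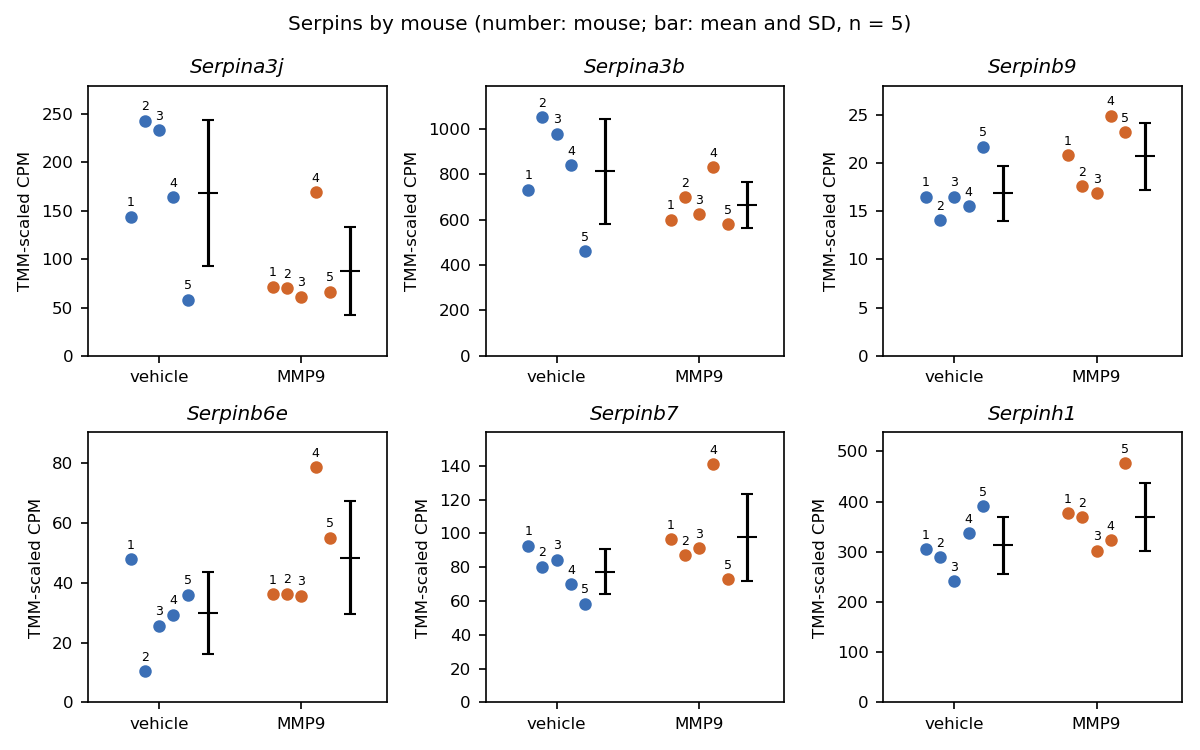
TMM-scaled CPM of 6 serpins in each mouse (the number beside a point is the mouse), with the mean and SD of each group of 5 as a bar. The vehicle and MMP9 ranges overlap in all 6 panels. On this scale, which its TMM factor raises, MMP9 mouse 4 is the highest MMP9 mouse in every panel but that of Serpinh1, and for Serpinb9 only vehicle mouse 5 overlaps the MMP9 mice.

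The serpins of coagulation and fibrinolysis were 5 genes, all tested, and 0 were called.

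Serpine2 (Entrez gene 20720), protease nexin 1, which inhibits thrombin at cell surfaces, was among the steadier members. It ranged from 50.5 to 65.9 CPM in vehicle, with a median of 64.4, and from 46.6 to 65.3 CPM in MMP9, with a median of 59.9. Its log2 fold change was -0.03 ± 0.11 (SE), with a 95% interval from -0.28 to 0.21.

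Serpinc1 (Entrez gene 11905) encodes antithrombin, a liver product that inhibits thrombin and factor Xa. Its levels in cheek skin were 2.27, 0.819, 1.26, 1.65 and 0.451 CPM in vehicle and 0.518, 0.455, 0.450, 1.80 and 0.656 CPM in MMP9. These values rest on 183 counts over all 10 libraries. In MMP9, 4 of 5 mice lay between 0.450 and 0.656 CPM and mouse 4 lay inside the upper part of the vehicle range. The log2 fold change was -0.77 ± 0.50 (SE), with an edgeR p of 0.152, an adjusted p of 0.981 and a 95% interval from -1.86 to 0.33, and it was -1.30 without MMP9 mouse 4 (edgeR p 0.0147, adjusted p 0.999). Vehicle mouse 1 and MMP9 mouse 4 were again the highest of their groups, as for albumin, and 33.1% of its distinct 50-base stretches occur in transcripts of the overlapping gene Zbtb37. Serpinf2, the plasma inhibitor of plasmin, and Serpind1, heparin cofactor II, had 1.16 and 0.754 TPM and log2 fold changes of 0.05 ± 0.29 and 0.14 ± 0.34 (SE).

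The remaining extracellular and chaperone serpins were 6 genes, of which 4 were tested. All 4 lay above 0, from 0.09 to 0.42 with a median of 0.18, and 0 were called. Their summed level was 1010 ± 263 TPM (SD, n = 5) in the vehicle mice and 1070 ± 220 TPM in the MMP9 mice.

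Serpinh1 (Entrez gene 12406) encodes HSP47, the chaperone of the endoplasmic reticulum that folding procollagen needs. Its levels were 305, 289, 241, 337 and 391 CPM in vehicle mice 1 to 5 and 377, 369, 302, 323 and 477 CPM in MMP9 mice 1 to 5. In CPM, MMP9 mouse 5 was the highest and vehicle mouse 3 the lowest of all, and the other 8 mice were interleaved. In TPM the lowest was MMP9 mouse 4, at 162 TPM. MMP9 over vehicle, its log2 fold change was 0.24 ± 0.16 (SE), with an edgeR p of 0.152, an adjusted p of 0.981 and a 95% interval from -0.10 to 0.59.

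Serping1 (Entrez gene 12258) encodes the C1 inhibitor, which restrains complement C1 and the contact system that releases bradykinin. It stood at 634, 425, 377, 733 and 703 CPM in vehicle and at 492, 639, 649, 620 and 658 CPM in MMP9. All 5 MMP9 mice lay inside the vehicle range. The fitted change, MMP9 over vehicle, was 0.09 ± 0.19 (log2, SE), with an edgeR adjusted p of 0.983 and a 95% interval from -0.33 to 0.51.

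Serpinf1 (Entrez gene 20317) encodes pigment epithelium-derived factor, an inhibitor of new vessel growth made by fibroblasts and fat cells. Its levels were 225, 120, 156, 259 and 269 CPM in vehicle and 193, 236, 221, 213 and 260 CPM in MMP9. Again the MMP9 mice all lay inside the vehicle range, and vehicle mice 2 and 3 were the lowest. The log2 fold change was 0.13 ± 0.21 (SE), with an edgeR adjusted p of 0.981. Serpini1, which encodes neuroserpin, an inhibitor of tissue plasminogen activator in neurons, had 0.518 TPM and a log2 fold change of 0.42 ± 0.33 (SE). Serpine3 and Serpini2, with 7 and 1 counts over all libraries, were not tested.

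Because serpins varied widely between mice, 14 pairs of a serpin and a list of genes it is known to be regulated or produced with were compared across the 10 mice. The list score of a mouse is the median over the list of log2 CPM minus the vehicle mean. Permutation p-values were adjusted over the 14 pairs. For 3 pairs the relation passed, all of them positive, and for 1 of the 3 it also held without the 2 mice farthest from the median score.

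Serpinh1 and a list of 24 genes for collagens and procollagen processing varied together, with a Pearson r of 0.87 (permutation p 0.00061, adjusted 0.00448) and a Spearman rho of 0.88 (permutation p 0.00163, adjusted 0.0228). Without vehicle mouse 3 and MMP9 mouse 4, r was 0.90 (permutation p 0.002, adjusted 0.028), and with both groups centred on their means it was 0.93 (permutation p 0.00018, adjusted 0.00252). Among the list's abundant members, Col3a1 and Col1a1 had log2 fold changes of 0.24 ± 0.33 and 0.13 ± 0.31 (SE), and 18 of 24 listed genes lay above 0 with a median of 0.08 and 0 called.

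Serpinb3a and 10 wound keratinocyte markers had an r of 0.87 (permutation p 0.00064, adjusted 0.00448) and a rho of 0.82 (permutation p 0.00571, adjusted 0.0271). Centred within treatment r was 0.86. Without vehicle mice 2 and 4 it was 0.72, with an adjusted permutation p of 0.186, so the relation rests in part on those mice. Of these markers, 8 of 10 had log2 fold changes below 0, with a median of -0.84, and 0 were called. At an unadjusted edgeR p under 0.05, 2 were lower in MMP9, where 1.12% of all genes were. The list's score ran from -1.78 to 1.86 among the vehicle mice alone. Krt6a, a keratin of wounded and suprabasal hair follicle epidermis, had the second smallest p of this list, with a log2 fold change of -0.72 ± 0.28 (SE, edgeR p 0.0257, adjusted p 0.981).

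Serpinf1 and 9 fibroblast markers had an r of 0.82 (permutation p 0.00893, adjusted 0.0417) and a rho of 0.72 (permutation p 0.0229, adjusted 0.0642). Centred within treatment r was 0.81. Without vehicle mice 2 and 3 it was 0.54, with an adjusted permutation p of 0.334, so this relation also rests on those mice.

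**Figure D5:**
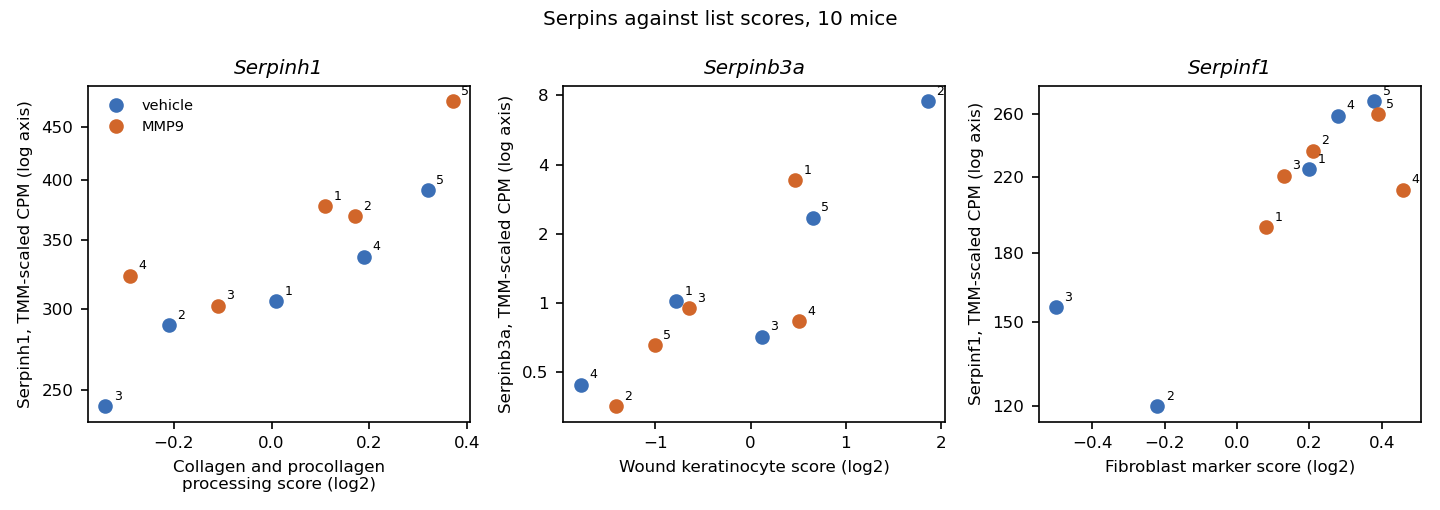
TMM-scaled CPM (log axis) of Serpinh1, Serpinb3a and Serpinf1 against the score of a gene list (log2, relative to the vehicle mean) in 5 vehicle (blue) and 5 MMP9 mice (orange), each numbered. All 3 panels rise from left to right (r of 0.87, 0.87 and 0.82), and vehicle mouse 2 alone holds the upper right of the Serpinb3a panel at 7.54 CPM.

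The other 11 pairs did not pass by Pearson r. The nearest were Serpinb9 with T and NK cell markers, at an r of 0.75 (permutation p 0.0152, adjusted 0.0513) and a rho of 0.82 (adjusted permutation p 0.0271), and Serpinb12 with differentiated keratinocyte markers, at an r of 0.72 (permutation p 0.0183, adjusted 0.0513). Centred within treatment, r was 0.65 for Serpinb9 (adjusted permutation p 0.097) and 0.80 for Serpinb12 (adjusted permutation p 0.0224). Serpinb2 and wound keratinocyte markers had an r of 0.60 (permutation p 0.0638, adjusted 0.149). Serpina3n had an r of 0.50 with STAT3 and acute phase genes (permutation p 0.142) and 0.37 with glucocorticoid-induced genes (permutation p 0.286).

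The proteases and partners that serpins act on were read from lists of the same pathways, and 0 genes of any list were called. Of plasminogen activation and coagulation partners, 16 of 24 tested genes lay above 0 with a median log2 fold change of 0.07. The most abundant were Anxa2 and S100a10, the cell surface receptor of plasminogen, at 0.05 ± 0.13 and 0.22 ± 0.27 (SE). The list of leukocyte serine proteases also holds perforin (Prf1), which is not a protease. Of its 9 tested genes, 8 lay above 0 with a median of 0.33. Among them were the mast cell chymases Mcpt4 at 0.50 ± 0.36 and Cma1 at 0.46 ± 0.39 (SE), neither with an edgeR p under 0.15. Of the mast cell markers, 5 of 6 lay above 0 with a median of 0.49, and none was called. Their summed levels overlapped, at 53.8 to 275 CPM in vehicle and 148 to 303 CPM in MMP9, no marker was at 0, and their part was not tested.

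Of cathepsins and caspases, 12 of 15 lay above 0 with a median of 0.11, and Casp1, the inflammatory caspase, had the smallest p, at 0.36 ± 0.16 (SE, edgeR p 0.041, adjusted p 0.981). Epidermal serine proteases had 6 of 16 above 0 and a median of -0.03, and Klk7, the most abundant kallikrein of the list, stood at 0.01 ± 0.19 (SE). Complement and contact system partners of Serping1 had 5 of 14 above 0 and a median of -0.06. Among 28 tested protease inhibitors of other families, 16 lay above 0 with a median of 0.01, and Pi15 was lowest in p, at -0.40 ± 0.18 (SE, edgeR p 0.047, adjusted p 0.981).

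Lists of inducers of serpin genes gave the same count of 0 called. Type I interferon genes had 14 of 14 above 0 with a median of 0.41, glucocorticoid-induced genes 2 of 13 with a median of -0.33, TGF-beta response genes 1 of 11 with a median of -0.09, and STAT3 and acute phase genes 6 of 14 with a median of -0.03. At an unadjusted edgeR p under 0.05, 4 interferon genes were higher in MMP9, where 2.07% of all genes were. Lower at that level were 3 glucocorticoid-induced genes and 1 TGF-beta response gene, where 1.12% of all genes were. Members known to respond to these signals stood at 0.07 ± 0.13 (Serpina3g, interferon) and -0.03 ± 0.28 (Serpina3n, glucocorticoid and STAT3) on the log2 scale (SE).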

How the data were processed

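Cheek skin mRNA of 5 vehicle and 5 MMP9 mice was analysed from 1 deposited table. Per the submitters' processing notes, HISAT and the build GRCm39 were used. The counting program, versions, annotation, strand setting and treatment of shared reads were not given in the sources used here. Per the file headers, the authors deposited an estimated count of reads per gene and mouse, of which 60.8% were not whole, and a TPM value. Not used were 16 columns of values, namely 10 of FPKM and 6 of group means.

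Estimated counts were rounded and tested over the whole table with edgeR 4.0.16 in R 4.3.3 (TMM factors, filterByExpr by group, quasi-likelihood fit and F test, Benjamini-Hochberg adjustment, threshold 0.05). The filter kept 15250 genes. Standard errors were derived from the F statistic, and intervals are at the 95% level. Totals per mouse were 17121541 to 19443099, so a gene at 3 counts stands at 0.15 to 0.208 CPM. No pair of libraries was a duplicate, with a chi-square per gene of at least 17.8. The test was checked on simulated data.

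The rule for members reads symbols only, but the family was proposed, and the lists were chosen, with earlier results of these data known. Values per mouse are given for the 8 tested members with the smallest p, the 8 most abundant by TPM, and Serpina3n, Serpinh1, Serping1 and Serpinb2. Of the members, 1 is counted but not reported singly here. Serpinb3a, Serpina1c, Serpinb12 and Serpine2 fall outside that rule and were added after their values were seen. From each pathway or marker list, genes were taken from the 3 with the smallest p and the 2 most abundant. Of 26 such lists with 327 entries, 318 entries matched the table. Relations used log2 CPM with a prior count of 2 and 100000 permutations.

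Shared 50-base stretches were counted in GENCODE M21 transcripts, and upstream sequences are RefSeq entries of GRCm38.p6. Alternatives were RLE and upper-quartile factors, 2 other filters, DESeq2 1.42.0, limma-voom and limma with a trend (limma 3.58.1) on log2(TPM + 1) and log2(TPM + 0.1), the mouse number as a block, and leaving out each mouse in turn.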

Additional observations from a re-analysis of the deposited data

Results flagged for a closer look

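Each tested serpin was screened in both groups, 92 groups of 5 mice in all, for a single mouse whose gap to its nearest neighbour took up most of the group's range. The limit was the critical value of Dixon's test at the 95% level, and 10 groups were picked out. The nominal rate of about 1 in 20 holds for independent, normally distributed values, and these groups share the same mice. The share over all tested genes is not at hand, so the count is not read as particular to serpins. In 6 of the 10 the mouse was MMP9 mouse 4, in which the TMM factor of 0.8434 raises every CPM value. For these 6 genes that mouse also had the highest counts of its group before scaling, such as 58484 for Serpinb6d and 2434 for Serpina3j. The part of the factor was not tested. MMP9 mouse 4 stood above its group for Serpina1d at 4.09 CPM, Serpina1b at 9.01 CPM, Serpinc1 at 1.80 CPM, Serpind1 at 1.73 CPM, Serpinb6d at 4050 CPM and Serpina3j at 169 CPM. MMP9 mouse 3 stood above its group for Serpina3n at 874 CPM, and MMP9 mouse 1 stood below its group for Serping1 at 492 CPM and above it for Serpinb3a at 3.42 CPM. In vehicle, mouse 2 stood above its group for Serpinb3a at 7.54 CPM. Read in TPM, a choice made after seeing the data, 4 of the 10 were still past the critical value: Serpinc1 and Serpina3j in MMP9 mouse 4, at 1.25 and 108 TPM, and both Serpinb3a values, at 7.94 TPM in vehicle mouse 2 and 3.85 TPM in MMP9 mouse 1. The other 6 were not, at 3.23 TPM for Serpina1d, 7.18 TPM for Serpina1b, 0.94 TPM for Serpind1, 3420 TPM for Serpinb6d, 750.0 TPM for Serpina3n and 496 TPM for Serping1, where MMP9 mouse 1 was no longer the lowest of its group.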

How the results depend on the processing

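Every alternative that was run left 0 serpins called, and DESeq2 called 1 gene of the whole table, which is not a serpin. The number of serpins at an unadjusted p under 0.05, which was 1 with edgeR, was 2 with DESeq2 and 0 to 3 when 1 mouse was left out. It was 0 without vehicle mouse 2 or vehicle mouse 3, 2 without vehicle mouse 1 or MMP9 mouse 4, and 3 without vehicle mouse 5. Without MMP9 mouse 1, 2, 3 or 5 it was 1, but another serpin than Serpina3j: Serpinb3a, Serpinb9, Serpinb9 and Serpinb7 in turn. The number of serpins whose groups did not overlap was 0 to 1 over the same fits, and the 1 was Serpinb9 without vehicle mouse 5. Mouse numbers name separate animals. The deviations of same-numbered mice from their group means correlated at -0.242, -0.0452, 0.455, 0.14 and 0.201, and 2 of the 5 mice correlated best with their own number, so the numbers were not taken to pair the samples. With the mouse number as a replicate block, 3 serpins had an unadjusted p under 0.05 (Serpina3j, Serpinb6e and Serpinb9) and 0 were called. Shares over all genes are at hand for the main edgeR fit only, 3.19% at that p and 0.564% without overlap. The counts in the other fits are therefore not read as particular to serpins.

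Leaving out 1 mouse in turn turned the sign of the log2 fold change for 26 of the 45 serpins reported singly, and the range over the 10 fits was -0.02 to 0.24 for Serpina10, -0.47 to 0.14 for Serpina1a, -0.54 to 0.05 for Serpina1b, -0.57 to 0.10 for Serpina1c, -0.34 to 0.28 for Serpina1d, -0.36 to 0.10 for Serpina3c, -0.0054 to 0.17 for Serpina3g, -0.07 to 0.15 for Serpina3i and -0.52 to 0.04 for Serpina3m. It was -0.29 to 0.14 for Serpina3n, -0.26 to 0.03 for Serpinb11, -0.52 to 0.04 for Serpinb12, -0.12 to 0.17 for Serpinb1a, -0.08 to 0.21 for Serpinb2, -1.79 to 0.13 for Serpinb3a, -0.07 to 0.30 for Serpinb3b, -0.09 to 0.14 for Serpinb5 and -0.09 to 0.25 for Serpinb6a. The range was -0.15 to 0.41 for Serpinb6c, -0.14 to 0.33 for Serpinb6d, -0.08 to 0.03 for Serpinb8, -0.13 to 0.32 for Serpind1, -0.09 to 0.03 for Serpine2, -0.02 to 0.24 for Serpinf1, -0.07 to 0.31 for Serpinf2 and -0.03 to 0.18 for Serping1. The sign did not turn under any alternative for 19 serpins, Serpina3j, Serpinb6e, Serpinb7, Serpinb9 and Serpinh1 among them. Outside these fits, the log2 fold change of Serpina1d was 0.07 with the replicate block, 0.08 in limma-voom and 0.01 on log2(TPM + 0.1). On both TPM scales Serpinb2 was at -0.02, Serpinb5 at -0.03 and Serpinb1a at -0.0033, and Serpina3i was at -0.0049 with a pseudocount of 1 and -0.0062 with 0.1. All of these lay within 1 standard error of 0, and the cause was not tested.

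Of the relations reported here, 5 changed sign or call without the 2 mice farthest from the median score, and 2 did when centred within treatment. Without them r was -0.07 for Serpina3n with glucocorticoid-induced genes, 0.20 for Serping1 and -0.05 for Serpina3g with type I interferon genes. It was 0.72 for Serpinb3a and 0.54 for Serpinf1, whose adjusted permutation p rose to 0.186 and 0.334. Centred within treatment, Serpina3g with interferon genes was at -0.02, and Serpinb12 with differentiated keratinocyte markers passed at 0.80. At this depth a gene of 3 counts stands at 0.15 to 0.208 CPM, and 12 serpins were too low to test.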
